A study of Drosophila melanogaster and Drosophila arizonae and Drosophila mojavensis with 18 samples.

Results

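UDP-glycosyltransferases (UGTs) are membrane enzymes of the endoplasmic reticulum that join a sugar, in insects mainly glucose taken from UDP-glucose, to small lipophilic molecules. The conjugate is more soluble in water and easier to transport and excrete. In flies the family is known for its part in the disposal of plant toxins and insecticides, in cuticle and pigment formation and in the clearance of odorants. The family was taken here as every row of the D. melanogaster table whose FlyBase symbol starts with Ugt and a digit, which gave 35 genes out of 17239 rows. Of these, 31 had values high enough to be tested, and 4 (Ugt35D1, Ugt36F1, Ugt37A1 and Ugt37E1) did not.

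RNA-Seq was done on poly(A) RNA of whole larvae of D. melanogaster in the third instar, a fruit breeding species, which had spent 24 h on 1 of 3 isocaloric diets made of yeast, sucrose, cornmeal and agar. Every diet also held ethanol and methyl paraben, a fungal inhibitor. HPLS is rich in protein and poor in sugar, EPS holds equal weights of yeast and sucrose, and LPHS is poor in protein and rich in sugar. Each diet had 2 libraries, numbered S1 and S2, so that there were 6 libraries in all. The larvae came from the isofemale strains Iso-SD1 and Iso-SD3, each founded by a single female, and larvae were kept and collected by the vial. Neither the labels nor the methods say whether S1 and S2 are the strains, and strain, vial and library preparation cannot be told apart in a difference between them. The design compared the diets, and the replicate numbers are compared here as well because each diet has 1 library of each.

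Library depth ran from 13219741 to 32807696 fragments in genes. Values are given as normalized counts, which are the deposited values divided by the relative library size after TMM scaling. Most deposited values are whole multiples of 1 step per library, and of the 210 values of the family 3 lay more than 0.01 steps from one, all of them of Ugt36E1 (S2 HPLS, S2 LPHS and S1 LPHS). The label of whole larvae was checked against marker genes of fat body, salivary gland, midgut, Malpighian tubule, muscle and neurons, and every one of these genes had reads in at least 5 of the 6 libraries. Genes of the adult antenna were at or near 0, with summed normalized counts of 2.19 to 10.9 in S2 and 4.15 to 7.31 in S1. Of the yolk protein genes, taken as adult markers, Yp1 and Yp2 had at most 5.14 normalized counts. Yp3, however, had 271 or more in every library. In S2 HPLS the storage protein genes Lsp1beta, Lsp1gamma and Lsp2 were listed at 0, although Lsp2, the lowest of them elsewhere, had 99308 or more in every other library.

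The members were spread over 4 chromosome arms of the release 6 assembly (BDGP6), with 23 of them in 6 clusters and 12 standing alone, where neighbours within 50000 bases were joined. The largest cluster lay on 3R from 11126597 to 11177910 and held 10 genes, Ugt35C1 at its left end and Ugt303A1 at its right end. It carries the genes formerly called Ugt86Da to Ugt86Dj, among them Ugt35A1, Ugt35B1, Ugt35E1 and Ugt35E2. A group of 3 on 2L, from 16794211 to 16801584, held Ugt37C2, Ugt37E1 and Ugt37D1, and another group on 2L, from 18819344 to 18829059, held Ugt36F1, Ugt36D1 and Ugt36E1. Coding lengths were between 1506 and 1908 bases. Exons of 5 members overlapped another annotated gene, and the library kit does not mark strand, so the reads of Ugt36A1, Ugt307A1, Ugt36E1, Ugt37A1 and Ugt49B1 may include some of the neighbour. Whether reads were split between similar members was not tested.

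Compared per 1000 coding bases, levels within the family differed by orders of magnitude. The highest mean level over the 6 libraries was that of Ugt37A3, at 981 normalized counts per 1000 coding bases, next to its neighbour Ugt37A2 at 938. They were followed by Ugt35A1 at 919, Ugt302C1 at 911 and Ugt37D1 at 789. The ranges of these 5 genes over the libraries overlapped, so their order is not firm. Together they held 50.3% of the summed normalized counts of the family. The median over the tested members was 124.6 per 1000 coding bases.

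The untested members had a handful of reads. Ugt36F1 had 1 to 4 fragments per library, Ugt37A1 had 0 to 4, Ugt35D1 had 0 to 2 and Ugt37E1 had 1 to 15. At this depth no difference in them was detectable, and they are left out of the counts that follow.

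**Figure D1:**
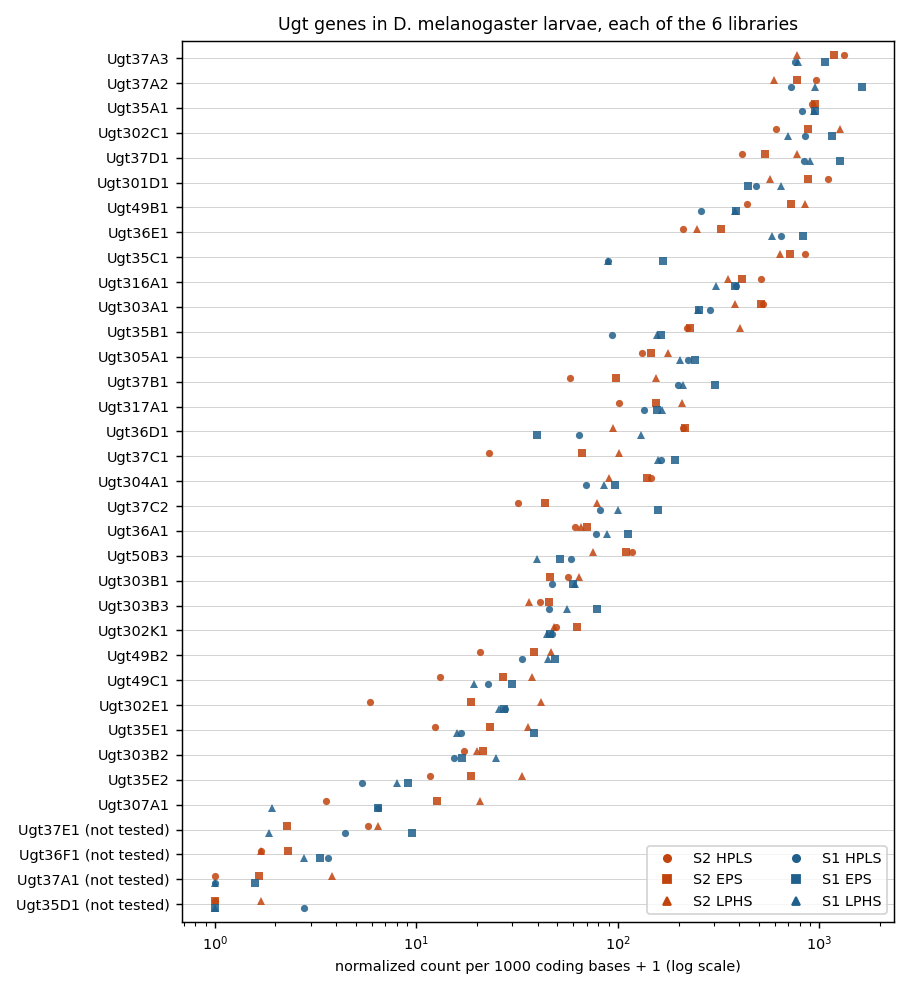
Normalized count per 1000 coding bases plus 1 (log axis) of the 35 Ugt genes of D. melanogaster, sorted by mean level, with 1 point per library, S2 in orange and S1 in blue, and the diet given by the symbol. The 5 highest genes have means of 789 to 981, and the 4 genes that were not tested lie at the bottom.

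Ugt35A1, a member described in flies as broadly expressed, was the steadiest of the abundant genes. Its normalized counts in HPLS, EPS and LPHS were 1478, 1539 and 1510 in S2, against 1315, 1537 and 1506 in S1. The libraries of S2 and S1 overlapped, and the highest was only 1.17 times the lowest. Ugt302C1 spread more, with 959, 1394 and 2009 in S2, against 1345, 1836 and 1110 in S1. Its values followed the sugar content in S2 but peaked on EPS in S1. Ugt37D1 had 672, 870 and 1266 in S2, against 1367, 2068 and 1469 in S1, so that every S2 library was below every S1 library.

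Ugt37A2 and Ugt37A3, which are neighbours on 3R from 12739642 to 12743680, had their highest value on HPLS in S2 and on EPS in S1. In the order HPLS, EPS and LPHS, Ugt37A2 had 1526, 1230 and 946 in S2, against 1153, 2588 and 1505 in S1. Ugt37A3 had 2101, 1886 and 1232 in S2, against 1202, 1697 and 1242 in S1. For both genes the S2 and S1 libraries overlapped. Summed over all 35 genes, the normalized counts in HPLS, EPS and LPHS were 14733, 15170 and 14761 in S2, against 12174, 16720 and 13065 in S1. The sum thus moved little between diets in S2, while values of single genes differed in both directions.

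The first comparison asks whether the expression of the family differed between diets. No member was called between any pair of diets (LPHS-HPLS, EPS-HPLS, LPHS-EPS), where a call is an adjusted p (Benjamini-Hochberg) not above 0.05 by limma over the 12324 genes tested. The share of all genes called was 0% in each of these comparisons. In LPHS-HPLS 1 member had an unadjusted p under 0.05, Ugt317A1, among 179 of all genes. In EPS-HPLS and LPHS-EPS no member did, and 42 and 25 of all genes did. On recovered fragments, DESeq2 and edgeR's quasi-likelihood test also called 0 members in each comparison, where DESeq2 called 16 of all genes (0.130%) in LPHS-HPLS and 0 in the others, and the quasi-likelihood test 0.

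The replicate number as a block left the count of calls at 0. With it, 7 members had an unadjusted p under 0.05 in LPHS-HPLS (941 of all genes), 3 in EPS-HPLS (314 of all genes) and 2 in LPHS-EPS (240 of all genes). The smallest adjusted p of a member in the block fit by limma was 0.351, for Ugt49B1 in LPHS-HPLS. With DESeq2 and the block, the smallest was 0.0649, and 176 of all genes were called in LPHS-HPLS and 24 in EPS-HPLS.

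The members leaned to higher values on the sugar richer diets without passing the test. In EPS-HPLS the fitted log2 difference was positive for 26 of 31 members, with a median of 0.43 against 0.00 for all genes. In LPHS-HPLS it was positive for 21 of 31, with a median of 0.28 against 0.00 for all genes. In LPHS-EPS it was positive for 14 of 31, with a median of −0.04. These comparisons share libraries, and members of a cluster are not independent of each other, so the counts describe the family and carry no test.

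The count of positive members in EPS-HPLS was 23 of 31 in S1 and 22 in S2 (53.7% and 49.2% of all genes). In LPHS-HPLS it was 19 in S1 and 20 in S2 (50.8% and 50.6% of all genes). For LPHS-EPS the counts were further apart, at 5 in S1 and 16 in S2 (48.8% and 50.1% of all genes). The order of the diets and the size of the differences were also unlike in S2 and S1. In S2, 23 of 31 members were ordered stepwise along HPLS, EPS and LPHS, 15 of them upward and 8 downward, against 42.3% of all genes ordered either way. In S1 9 members were, against 31% of all genes. There, EPS was the highest diet for 20 of 31 members, against 36.9% of all genes. The S1 EPS library also had the lowest salivary glue and Fbp1 values of the series in this species, with 1228 normalized counts of Sgs3, against 14150 in S1 HPLS and 4341 in S1 LPHS, and 163 of Fbp1, against 16581 and 19988. The median of the glue list in EPS-HPLS was −1.86, and the part of this in the Ugt values was not tested. An LPHS-HPLS difference of at least 1 on the log2 scale was found upward in 11 members in S2 (4.23% of all genes) and in 1 in S1, Ugt36D1 (2.32% of all genes). With 1 library per diet and number, the difference between S2 and S1 in the diet response could not be tested.

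Several of the 11 upward differences in S2 came with low values in the HPLS library of that set. Ugt302E1, in the cluster on 3R, had 7.66, 27.8 and 63.6 normalized counts in HPLS, EPS and LPHS in S2, while its S1 libraries stayed between 38.8 and 41.3. Ugt37C1 had 34.5, 103 and 158 in S2 and 248 to 302 in S1. Both genes were picked here for the size of the S2 difference. Between LPHS and EPS in S2, which leaves that library out, 16 members were positive and 15 negative, with 2 members (Ugt302E1 and Ugt36D1) at 1 or more on the log2 scale in either direction (6.08% of all genes).

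LPHS-HPLS had the same sign in S2 and S1 for 16 of 31 members, a share of 51.6%, against 53.7% of all genes. For EPS-HPLS it was 22 of 31, or 71.0%, against 49.3% of all genes, with 18 positive in both sets. The LPHS and HPLS libraries did not overlap for 6 of 31 members, or 19.4%, against 23.3% of all genes. Of these, Ugt317A1, Ugt35A1, Ugt49B2, Ugt303B1 and Ugt303B2 were higher in LPHS, and Ugt316A1 was lower.

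**Figure D2:**
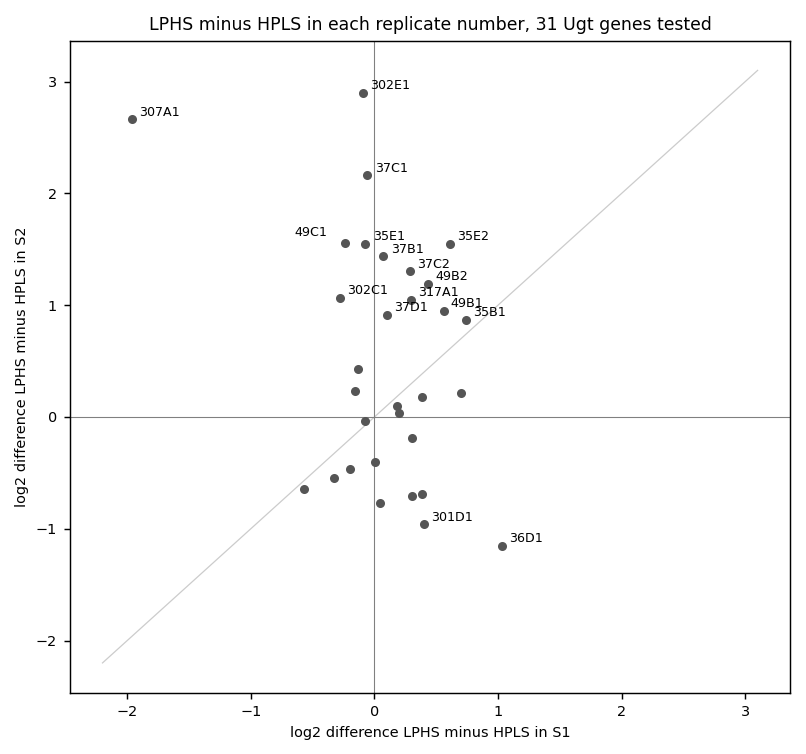
Log2 difference LPHS minus HPLS of the 31 tested Ugt genes in S2 (y axis) and in S1 (x axis), 1 library per diet and set, with the line of equal difference in grey and labels without the prefix Ugt. Most points lie close to 0 in S1, while 11 reach 1 or more in S2, and Ugt36D1 and Ugt307A1 are among the genes with opposite signs in the sets.

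Among the members with 1 sign in both sets, the largest LPHS-HPLS differences were positive for Ugt35E2, Ugt49B2 and Ugt35B1. Ugt35B1, first described in flies as an enzyme of the antenna, had 622 normalized counts in S2 LPHS against 340 in S2 HPLS, and 239 in S1 LPHS against 143 in S1 HPLS. The fitted log2 difference was 0.80 (SE 0.60, limma adjusted p = 1.00). The S1 LPHS library was below the S2 HPLS library, so the diets overlapped although the difference was positive within each set. Ugt49B2 had 72.3 in S2 LPHS against 31.2 in S2 HPLS, and 69.2 in S1 LPHS against 51.0 in S1 HPLS. Both LPHS libraries were above both HPLS libraries, with a log2 difference of 0.81 (SE 0.35, limma adjusted p = 1.00). Ugt35E2, a scarce transcript, had 51.5 in S2 LPHS against 17.0 in S2 HPLS, and 11.1 in S1 LPHS against 6.89 in S1 HPLS. Its log2 difference was 1.08 (SE 0.89). These SEs come from the fit of diet alone, where S2-S1 adds to the spread. With the replicate block they were 0.25 for Ugt35B1, 0.27 for Ugt49B2 and 0.42 for Ugt35E2. The limma adjusted p in the block fit was 0.542, 0.579 and 0.644 in the same order. Each of the 3 differences moved when 1 library was left out. For Ugt35B1 it was 0.18 without HPLS replicate 1, 0.12 without LPHS replicate 2, 1.39 without HPLS replicate 2 and 1.47 without LPHS replicate 1. For Ugt35E2 the corresponding values were 0.49, 0.02, 1.64 and 2.13, and for Ugt49B2 the lowest was 0.44, without HPLS replicate 2. These fits had no replicate block, so leaving out an HPLS or LPHS library brought part of S2-S1 into the difference. Within sets it was 0.74 in S1 and 0.87 in S2 for Ugt35B1. It was 0.61 and 1.55 for Ugt35E2, and 0.43 and 1.19 for Ugt49B2.

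The lowest LPHS-HPLS differences with 1 sign were those of Ugt50B3, Ugt316A1 and Ugt303A1, and these were also the 3 members that descended stepwise from HPLS over EPS to LPHS in both sets. Ugt50B3 had 184, 172 and 117 normalized counts in S2 and 90.9, 79.5 and 60.9 in S1, with a log2 LPHS-HPLS difference of −0.61 (SE 0.57). Ugt316A1 had 982, 784 and 671 in S2 and 730, 726 and 581 in S1, with −0.44 (SE 0.22). Ugt303A1 had 829, 813 and 602 in S2 and 452, 396 and 393 in S1, with −0.33 (SE 0.47). With the replicate block the SEs were 0.18 for Ugt50B3, 0.15 for Ugt316A1 and 0.16 for Ugt303A1. The limma adjusted p in the block fit was 0.536, 0.598 and 0.739 in the same order. For Ugt303A1 the difference was 0.08, with the sign turned, without HPLS replicate 2, −0.05 without LPHS replicate 1, −0.64 without LPHS replicate 2 and −0.77 without HPLS replicate 1. In the same order of libraries left out, it was −0.13, −0.16, −1.07 and −1.11 for Ugt50B3, and that of Ugt316A1 was −0.25 without HPLS replicate 2. These fits had no replicate block either, so part of S2-S1 entered them. Within sets the difference was −0.20 in S1 and −0.46 in S2 for Ugt303A1. It was −0.57 and −0.64 for Ugt50B3, and −0.33 and −0.55 for Ugt316A1. Ugt317A1 was the only member that ascended in both sets, with 159, 244 and 330 in S2 and 212, 246 and 260 in S1, and was picked here after its values were seen. Together 4 of 31 members, or 12.9%, were stepwise in both sets, against 9.38% of all genes.

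The next comparison asks how far the members differed between S2 and S1 within diets. In the limma fit with diet in the model, 10 of 31 members (32.3%) were called in S2-S1, against 15.9% of all genes. Of these, 6 were higher in S2 (7.81% of all genes) and 4 were lower (8.07% of all genes). An unadjusted p under 0.05 was found for 15 of 31 members, against 36.3% of all genes. The median size of the log2 difference was 0.57 for members and 0.33 for all genes, and the median of the signed difference was 0.00 for members.

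The count of 10 depended on which diets entered. With diet as a term, leaving out 1 library of a diet leaves its partner without information on S2-S1. The 2 omissions within a diet are thus nearly the same run, with that diet pair lost. It was 4 without either HPLS library, 5 without either EPS library and 15 without either LPHS library. The share of all genes called moved likewise, to 5.09% without HPLS replicate 2 and 5.83% without HPLS replicate 1, to 8.07% and 6.65% for EPS, and to 27.7% and 26.1% for LPHS. Ugt35C1, Ugt36E1 and Ugt49B1 were called in each of the 14 alternatives.

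Ugt35C1 showed the largest of the called differences. This gene, formerly Ugt86Dd, is known from flies as a locus of larval nicotine resistance. It had 1311, 1107 and 992 normalized counts in HPLS, EPS and LPHS in S2, against 136, 260 and 137 in S1. The lowest S2 library was far above the highest S1 library, and the gene rose by 2.73 on the log2 scale (SE 0.23, limma adjusted p = 0.00323). Under the alternatives the difference stayed between 2.45 and 3.05.

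Other members of family 35 were also higher. Ugt35B1 had 340, 350 and 622 in S2, against 143, 252 and 239 in S1, a log2 difference of 1.03 (SE 0.20, limma adjusted p = 0.0283). Ugt35E2 had 17.0, 27.8 and 51.5 in S2, against 6.89, 12.8 and 11.1 in S1, a log2 difference of 1.46 (SE 0.34, limma adjusted p = 0.0424). For both genes every S2 library was above every S1 library. In all, 3 of the 5 tested members of family 35 were called higher (7.81% of all genes) and none lower. Ugt35A1 had a log2 difference of 0.06 (SE 0.11). Ugt35E2 lost its call in DESeq2 and without any 1 library, and Ugt35B1 lost it without either HPLS library. Within the cluster on 3R 4 of 10 genes were called higher (7.81% of all genes), namely these 3 and Ugt303A1 at the opposite end from Ugt35C1. The counts by family and by cluster thus share genes, and neither grouping was tested.

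Ugt49B1, Ugt50B3 and Ugt303A1 completed the higher group. Ugt49B1 had 699, 1157 and 1351 in S2, against 412, 616 and 608 in S1, with no overlap and a log2 difference of 0.94 (SE 0.13, limma adjusted p = 0.0125). It was also higher in EPS than in HPLS in both sets, by 0.73 in S2 and 0.58 in S1 on the log2 scale, without passing the test. Ugt50B3 differed by 1.01 (SE 0.15, limma adjusted p = 0.0145) and Ugt303A1 by 0.84 (SE 0.13, limma adjusted p = 0.0170), from the values given above, and neither overlapped. The call of Ugt50B3 was lost without either HPLS library, and that of Ugt303A1 without either HPLS or EPS library.

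**Figure D3:**
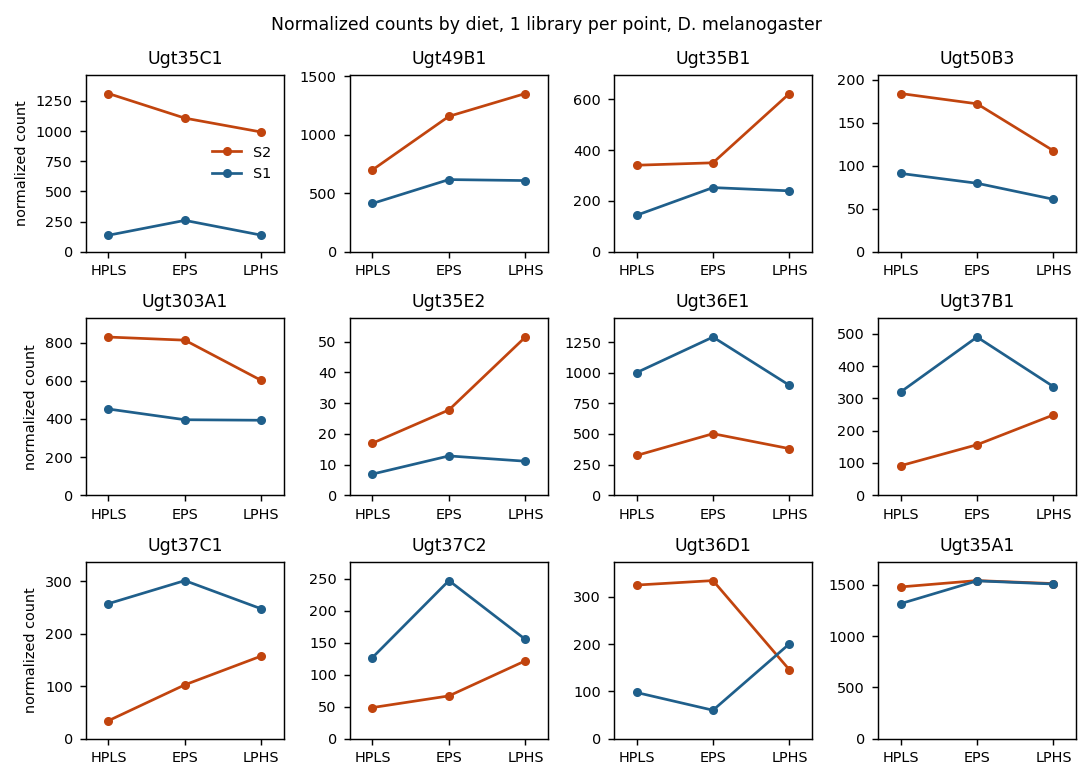
Normalized counts of 12 Ugt genes of D. melanogaster by diet, with S2 in orange and S1 in blue and 1 library per point. Ugt35C1 lies at 992 to 1311 in S2 and at 136 to 260 in S1, whereas Ugt35A1 nearly coincides in the sets and Ugt36D1 crosses between them.

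Of the 4 genes that were lower in S2 (8.07% of all genes were called lower), 3 belong to family 37, which had 6 tested members. Ugt36E1 had 324, 502 and 380 normalized counts in HPLS, EPS and LPHS in S2, against 1000.4, 1291 and 897 in S1. It fell by 1.41 on the log2 scale (SE 0.13, limma adjusted p = 0.00425), the S2 and S1 libraries did not overlap, and EPS was the highest diet in both sets. The overlap of its exons with the neighbour CG17597 covers 48 bases.

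Ugt37B1 had 91.4, 156 and 249 in S2, against 320, 490 and 336 in S1, a log2 difference of −1.29 (SE 0.28, limma adjusted p = 0.0350). Ugt37C1 had 34.5, 103 and 158 in S2, against 258, 302 and 248 in S1, a log2 difference of −1.69 (SE 0.40, limma adjusted p = 0.0426). Ugt37C2 had 48.7, 66.9 and 122 in S2, against 127, 247 and 155 in S1, a log2 difference of −1.19 (SE 0.30, limma adjusted p = 0.0479). Every S2 library of these genes was below every S1 library. The gap was smallest on LPHS for each, at −0.43 for Ugt37B1, −0.65 for Ugt37C1 and −0.35 for Ugt37C2, but a change of the gap with diet could not be tested. These calls were lost without either EPS library for all 3, without either HPLS library for Ugt37B1 and Ugt37C2, and without the diet term for Ugt37C2.

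Ugt37D1, a cluster neighbour of Ugt37C2, missed the threshold at −0.83 (SE 0.21, limma adjusted p = 0.0508) and passed it in several alternatives. Of the 6 tested members of family 37, 5 had a negative difference, and Ugt37A3 had a positive one. Counted without a test of this kind, the S2 and S1 libraries failed to overlap for 14 of 31 members, or 45.2%, against 43.7% of all genes. The sign of S2-S1 was the same in all 3 diets for 18 of 31 members, 10 positive and 8 negative, against 57.5% of all genes.

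**Figure D4:**
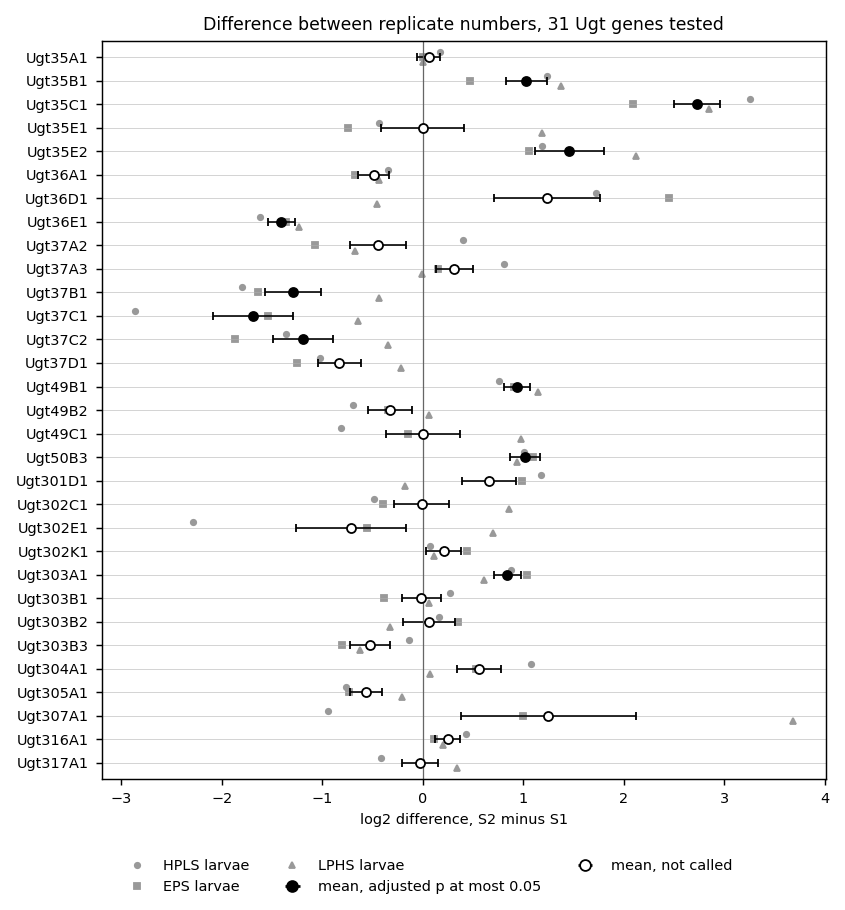
Log2 difference S2 minus S1 of the 31 tested Ugt genes, grouped by family number, with the fitted mean and its standard error in black (filled where the adjusted p was at most 0.05) and the difference within each diet in grey. Ugt35C1 stands at 2.73 and Ugt37C1 at −1.69, and 6 genes are filled to the right of 0 and 4 to its left.

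Some tissue markers differed between S2 and S1, mainly the salivary glue genes, while most genes of the other tissue lists were not called. Of the salivary glue genes, 4 of 5 were called higher in S2, against 7.81% of all genes. Their summed normalized counts were 69727 to 235092 in S2, against 3223 to 34883 in S1. Of the larval fat body genes 2 of 6 were called higher, Lsp1alpha and Fbp2, and the sums overlapped, at 712336 to 1612740 in S2 (its HPLS library lacks the 3 genes listed at 0) and 1116330 to 1422810 in S1. The midgut gene alphaTry was higher as 1 of 7 (sums of 165926 to 209500 in S2 and 156444 to 192402 in S1), and the neuronal gene Syt1 as 1 of 3 (2063 to 3696 in S2 and 1617 to 1795 in S1). The yolk protein gene Yp3 was higher as well, while Yp1 and Yp2 had too few reads to be tested. No muscle gene was called, with sums of 402664 to 654398 in S2 and 598929 to 741371 in S1. The Malpighian tubule list, from a tissue known for detoxification, had 0 of 5 called, with sums of 11416 to 14329 in S2 and 11801 to 12155 in S1. The part of these differences in the values of the Ugt genes was not tested, and in whole larvae fewer cells of a type and less RNA per cell cannot be told apart.

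The variation of a member over the 6 libraries was split into the shares of replicate number, diet and rest. The medians over the 31 members were 51.0% for the number, 26.4% for the diet and 18.4% for the rest. These are raw shares of the sum of squares, and their medians need not add up to the whole. On average, noise alone would give the diet and the rest equal shares and the number a smaller share. The share of the diet is thus no measure of a diet effect by itself. Over all genes they were 48.9%, 17.4% and 21.3%. The members also varied more in size, with a median SD over the libraries of 0.51 on the log2 scale, against 0.28 for all genes.

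Genes of the same pathway or of related functions were compared as lists. The 8 genes of UDP-sugar supply, which include UGP (it makes UDP-glucose, the sugar donor of most insect UGTs) and sgl (it makes UDP-glucuronate), had 0 calls in the diet comparisons and in S2-S1. The median log2 difference of this list was 0.20 in LPHS-HPLS and −0.06 in S2-S1. The 5 regulators, among them cnc, the fly counterpart of Nrf2, and its inhibitor Keap1, also had 0 calls. So had the 4 transporters of the MRP and Mdr groups.

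Of 18 other detoxification enzymes, 0 were called between diets, and 5 were called in S2-S1, against 15.9% of all genes. The cytochrome P450 gene Cyp6a8 had 1140, 1178 and 626 in HPLS, EPS and LPHS in S2, against 200, 224 and 227 in S1. The glutathione transferase gene GstE1 had 2462, 2678 and 3260 in S2, against 667, 764 and 735 in S1. Cyp6a8 and GstE1 had the largest S2-S1 differences of the list, at 2.12 and 1.95 on the log2 scale, and were picked afterwards. The epoxide hydrolase gene Jheh1 was also higher, while GstD2 and GstE6 were lower in S2. Called genes lay on both sides of 0 in this list and in the Ugt family, as they did over all genes (7.81% higher and 8.07% lower).

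For context, 4 UGT genes of the cactus breeding species D. mojavensis, kept on the same diets with 2 libraries each, are described. Its larvae came from the isofemale strains Baja-1C and Baja-1F. What S1 and S2 stand for is not stated for this species either. The study picked them from these libraries by Cuffdiff, so their values carry no test here. Levels are not compared across species because the tables were normalized separately. For GI20954 the study also reported RT-qPCR, with a change in the same direction as its RNA-Seq. GI20954 had 8.27, 31.3 and 90.3 normalized counts in HPLS, EPS and LPHS in S2, and 16.0, 27.3 and 77.9 in S1. Both sets ascended along the diets, with an LPHS-HPLS difference of 3.30 in S2 and 2.21 in S1 on the log2 scale.

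The D. melanogaster ortholog named for it, Ugt36D1, did not follow 1 pattern. It had 325, 334 and 146 in S2, and 97.8, 60.3 and 201 in S1, with LPHS-HPLS differences of −1.15 in S2 and 1.03 in S1. The fitted difference was −0.06 (SE 0.93, or 0.64 with the replicate block). GI20943 had 65.1, 136 and 198 in S2 and 67.0, 82.8 and 135 in S1, and its ortholog Ugt36F1 had too few reads for a comparison. The paper's text lists GI20943 among the UGT genes that were down-regulated. Here it was higher on LPHS than on HPLS, by 1.59 in S2 and 1.00 in S1 on the log2 scale. The reason for this discrepancy was not tested.

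GI22628 descended along the diets, with 388, 212 and 104 in S2 and 415, 272 and 168 in S1. Its LPHS-HPLS difference was −1.89 in S2 and −1.30 in S1, whereas that of the ortholog Ugt35B1 was 0.87 in S2 and 0.74 in S1. GI17523 had 385, 162 and 65.9 in S2 and 895, 348 and 129 in S1, with differences of −2.53 and −2.79. For its orthologs the difference was −0.69 in S2 and 0.38 in S1 for Ugt37A2, and −0.77 in S2 and 0.05 in S1 for Ugt37A3. None of the 4 tested orthologs was called in LPHS-HPLS.

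**Figure D5:**
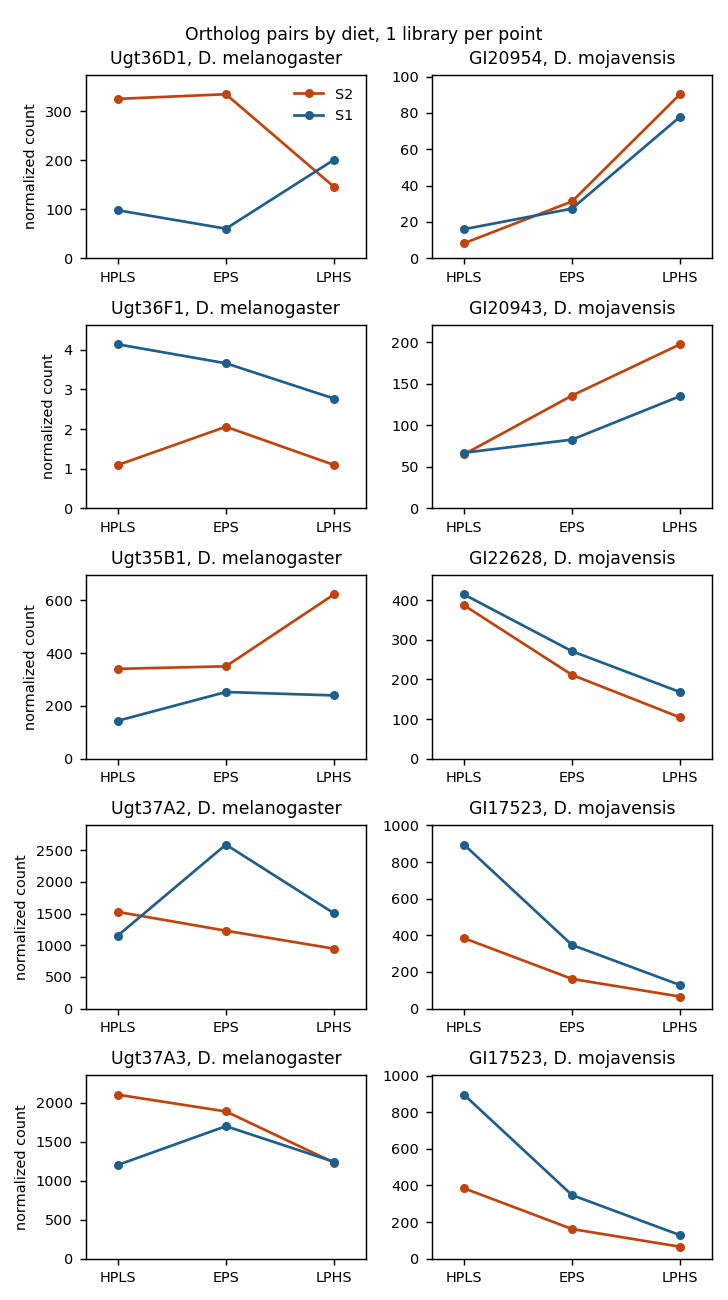
Normalized counts by diet of 5 D. melanogaster Ugt genes (left) beside the D. mojavensis genes named as their orthologs (right), with S2 in orange, S1 in blue and 1 library per point; vertical scales differ, and GI17523 is drawn for each of its orthologs. GI20954 goes up to 77.9 and 90.3 on LPHS in both sets, while Ugt36D1 crosses between the sets.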

How the data were processed

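The authors mapped read pairs with TopHat2 and counted fragments per gene with Cuffdiff. They deposited signal values, and the files show that each is, for 96.7 to 97.1% of the values of D. melanogaster and 100% of those of D. mojavensis, a whole multiple (within 0.01 steps plus 1e-05 of the value) of 1 step per library. Values were scaled by TMM, genes were kept by filterByExpr (edgeR 4.0.16, minimum count 10), and log2(value + 1) was compared with limma 3.58.1 in R 4.3.3. Such fold changes understate low genes. All 12324 genes entered the fits and the Benjamini-Hochberg adjustment. Diets were fitted alone, and S2-S1 with diet as a term.

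S1 libraries deviated from their diet means together (correlations of 0.55 to 0.71 across genes over the 3 pairs of diets), so the number in the labels was treated as pairing them and a fit with the number as a block was run. Alternatives were RLE scaling, no filter, pseudocounts of 0.5 and 5, edgeR's quasi-likelihood test and DESeq2 1.42.0 on fragments recovered by the step and rounded, and each library left out. Scaling by library totals was chosen after seeing the data. P-values measure the spread between these libraries. Members, lists, markers and tests were chosen with earlier results of these data known. Ugt genes named with values were the 5 highest per 1000 coding bases, the 3 highest and 3 lowest LPHS-HPLS differences with the same sign in S1 and S2, the called members and the orthologs. Any other Ugt gene is said to be picked afterwards. No rule set in advance chose which marker and list genes are given with values. Symbols came from FlyBase names (35 of 35 matched) and positions from the BDGP6 annotation, the assembly of the FlyBase release 6 used by the authors. The D. arizonae table was not used here.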

Additional observations from a re-analysis of the deposited data

Results flagged for a closer look

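The LPHS-HPLS difference of Ugt35B1 in D. melanogaster was positive in both S2 and S1. That of its D. mojavensis ortholog GI22628 was negative in both. Ugt35B1 was 0.87 higher in LPHS in S2 and 0.74 higher in S1 on the log2 scale, while GI22628 was at −1.89 in S2 and −1.30 in S1. The mean difference of Ugt35B1 minus that of GI22628 was 2.40. The difference between the species was not tested. The fitted difference of Ugt35B1, 0.80, ran from 0.12 to 1.47 when 1 library was left out. Those fits had no replicate block, so leaving out an HPLS or LPHS library brought part of S2-S1 into it.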

How the results depend on the processing

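The 0 members called in LPHS-HPLS, EPS-HPLS and LPHS-EPS stayed at 0 when the replicate block was added, and under each other alternative run. The block changed no call of a member, but over all genes it raised the DESeq2 calls to 176, against 16 without it, in LPHS-HPLS, and to 24, against 0, in EPS-HPLS. S2-S1 called 10 members, 10 to 12 under the other scalings, filter, pseudocounts, tests and models, and 4 to 15 when 1 library was left out. The LPHS-HPLS difference of Ugt303A1, −0.33, ran from −0.77 to 0.0765 with 1 library left out. Likewise Ugt35E2 ran from 0.02 to 2.13, Ugt35B1 from 0.12 to 1.47, Ugt49B2 from 0.44 to 1.16, Ugt50B3 from −1.11 to −0.13 and Ugt316A1 from −0.65 to −0.25. These fits had no replicate block. Without 1 HPLS or LPHS library the diets differ in their mix of S1 and S2, so part of S2-S1 enters the difference. Within sets, the difference of Ugt303A1 was −0.20 in S1 and −0.46 in S2. In fits with 1 library left out, the lone library of a diet is assumed to vary like the others, and it carries no information on S2-S1. Of the members called in S2-S1, 7 of 10 lost that call in at least 1 alternative, and none changed sign in S2-S1. With 2 libraries per diet, the spread between libraries limits all genes, and depth limits the 4 untested members.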
